A study of Mus musculus with 8 samples.

Results

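Expression of 34 genes of glycolysis and pyruvate handling was followed in E14Tg2A.4 mouse embryonic stem (ES) cells, a single cell line, that were left untreated or stimulated with retinoic acid (RA) for 72 h. The genes were chosen by name, from the glucose transporters to the kinases of pyruvate dehydrogenase, with earlier results of these data known. They make up 34 of the 36406 gene names on a 1-colour Agilent array. Each gene was represented by its brightest probe, taken over all 8 arrays, and 33 of the 34 probes were well above background on every array. Total RNA of 4 biological replicates per condition was labelled with Cy3. Per the study's methods, all-trans RA was used at 1 µM in medium without leukemia inhibitory factor, the cytokine that keeps mouse ES cells self-renewing. Any effect of that medium and of RA itself cannot be told apart on these arrays.

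Glycolysis turns glucose into pyruvate in the cytosol. Most of its steps are reversible, and control falls mainly on glucose uptake, hexokinase, phosphofructokinase and pyruvate kinase, each of which exists as several isoenzymes encoded by separate genes. Pyruvate is then either reduced to lactate by lactate dehydrogenase and exported, or oxidised in mitochondria by the pyruvate dehydrogenase complex, which the PDK kinases switch off. ES cells have an active glycolysis, and the choice of isoenzymes is known to differ between cell types.

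The labels were checked against marker genes. All 6 ES cell markers examined, *Pou5f1* and *Nanog* among them, were called lower after RA, and their summed level, on the log2 scale described next, went from 7.98 to 8.47 in untreated cells to 2.88 to 4.87 after RA. The RA response genes *Cyp26a1*, *Rarb* and *Stra8* were called higher, as were all 5 primitive endoderm markers (summed level 0.25 to 1.13 untreated, 4.42 to 5.19 after RA). The 4 neural markers measured were mixed (2.58 to 3.25, then 3.36 to 3.55), with *Nes* higher, *Tubb3* lower and *Sox1* and *Pax6* not called. Of the 4 mesoderm markers none was called higher and 2 were called lower (-1.90 to -1.17, then -2.61 to 0.40), 1 of them, *Mixl1*, not well above background on any array. Markers that fibroblasts also carry moved with RA in 4 of 5 cases (*Col1a1*, *Col1a2*, *Col3a1* and *Pdgfra*, not *Thy1*), and their summed level went from 0.20 to 1.06 to 4.39 to 5.26 on the log2 scale. The part of these cell type markers in the results on metabolism was not tested. Between 33629 and 37175 of the 59305 spots per array that are not controls were well above background, no spot was saturated, and no member had a missing value.

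Intensities are given as log2 of the processed signal minus the 75th percentile of the array, so a value of 0 is a spot at that percentile. A gene was called when the limma fit across all 55681 probes gave an adjusted p (Benjamini-Hochberg) under 0.05 and a change of more than 1.5-fold. Changes are log2 fold changes, RA minus untreated, ± the standard error of the fit, with 4 arrays per condition. Of the 34 members 14 were called, 6 higher and 8 lower. Among all gene names 36.1% were called, 13.9% higher and 22.1% lower, and among the 20404 gene names well above background on all 8 arrays 45.6% were called (18.1% higher, 27.5% lower). Over all probes the share was 34.6% (12.9% higher, 21.6% lower). The share of called members thus lay near that of other genes. In bulk RNA, fewer cells that carry a transcript and less of that transcript per cell cannot be told apart. The median change of the members was -0.23 and that of all gene names -0.28. Quantile normalization in place of the 75th percentile moved the median of all probes from -0.28 to -0.00257. That method gives every array the same distribution, so a median near 0 is built in. It cannot show whether the shift of -0.28 came from the cells or from the arrays, which was not tested. Small changes are therefore uncertain by about that shift. With quantile normalization the share of higher calls among called probes went from 37.4% to 48.4%, and the members gave 6 higher and 6 lower.

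The array values of 8 members did not overlap between conditions and were higher after RA, and those of 9 members did not overlap and were lower. Across all gene names 40.5% did not overlap (15.2% higher, 25.2% lower), among those well above background on all 8 arrays 54.9% (21% higher, 33.9% lower), and over all probes 37.7% (13.9% higher, 23.8% lower). Arrays came from 2 slides that each held 2 arrays of each condition. Within each slide all 14 called members changed in the direction found over all arrays, as did 28 of all 34. With the slide as a block the members gave 6 higher and 7 lower.

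**Figure D1:**
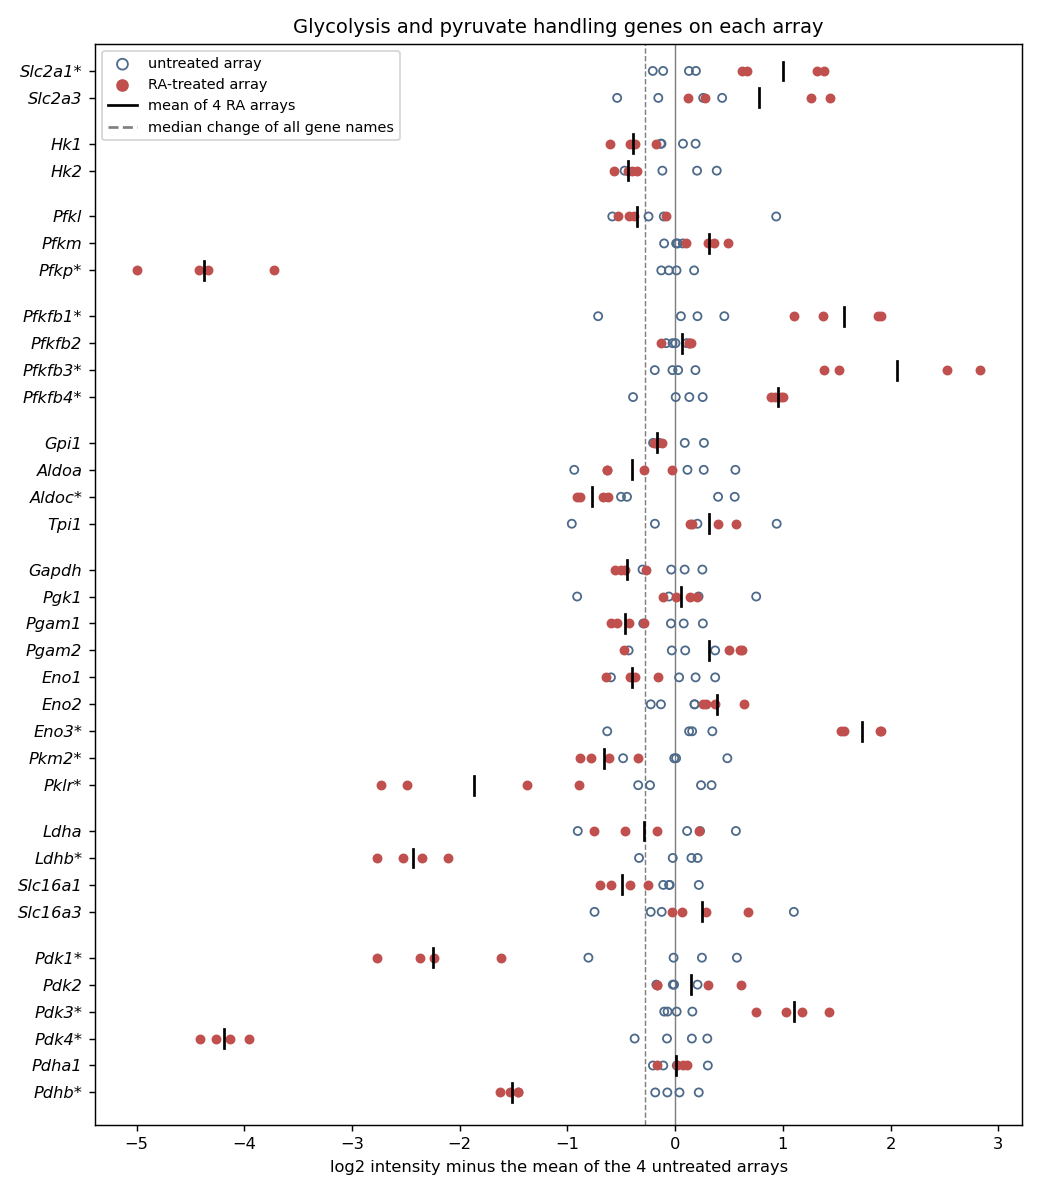
Each row is 1 of the 34 genes, grouped by role, and the x axis gives the log2 intensity on each array minus the mean of the 4 untreated arrays. Open circles are untreated arrays, filled circles RA arrays, vertical bars the RA means, the dashed line the median change of all gene names (-0.28), and asterisks mark called genes. *Pfkp* and *Pdk4* lie farthest to the left and *Pfkfb3* farthest to the right.

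The sequences just upstream of the gene starts are shown for members with contrasting motif content, because hypoxia-inducible factors, which switch on many glycolytic genes, read a core of ACGTG or GCGTG, and factors such as Myc read the E-box CACGTG, which contains the first of these. Only ACGTG and CACGTG were searched, so a promoter without a match may still hold GCGTG, as the printed sequences of *Pfkp* and *Pdk4* do. RefSeq promoters (mouse GRCm38.p6, 250 bases before to 50 bases after a start) were matched for 33 of the 34 members (all but *Slc2a3*), and both strands were searched. Of 53 member promoters 22 (41.5%) held ACGTG, against 19.6% of the 32851 promoters of the table, and 6 (11.3%) held CACGTG, against 7.15%. By gene, ACGTG was found for 3 of the 6 members called higher, for 3 of the 8 called lower and for 12 of the 19 that were not called. Among the called members not printed here, *Pfkfb1*, *Pfkfb4* and *Eno3* were called higher and hold no ACGTG, and *Aldoc*, *Pkm2* and *Pdhb* were called lower and hold it at a start. A match is a description of the letters only. The 100 bases before the start are printed 5′ to 3′ on the strand of the gene, with ACGTG or its reverse complement in capitals, first for *Slc2a1* (chr4:119108645-119108744, plus strand), both starts of *Pfkfb3* (chr2:11553930-11554029 and chr2:11502091-11502190, minus strand) and *Pdk3* (chrX:93832151-93832250, minus strand), which were called higher and hold a match, then for *Pfkp* (chr13:6648772-6648871, minus strand), *Ldhb* (chr6:142507958-142508057, minus strand) and *Pdk4* (chr6:5496279-5496378, minus strand), which were called lower and hold no ACGTG in the whole window, and last for the upstream of the 2 starts of *Ldha* (chr7:46845704-46845803, plus strand), which holds the motif more than once. *Ldha* was not called, and the window of its other start holds neither motif.
Slc2a1: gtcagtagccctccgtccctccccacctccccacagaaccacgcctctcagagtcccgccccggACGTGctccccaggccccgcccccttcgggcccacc
Pfkfb3, upstream start: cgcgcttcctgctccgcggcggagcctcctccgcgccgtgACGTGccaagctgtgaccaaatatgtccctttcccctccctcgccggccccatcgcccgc
Pfkfb3, downstream start: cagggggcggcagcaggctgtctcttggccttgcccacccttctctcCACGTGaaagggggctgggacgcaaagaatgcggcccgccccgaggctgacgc
Pdk3: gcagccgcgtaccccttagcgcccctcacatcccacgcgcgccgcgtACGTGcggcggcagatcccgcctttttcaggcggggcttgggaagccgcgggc
Pfkp: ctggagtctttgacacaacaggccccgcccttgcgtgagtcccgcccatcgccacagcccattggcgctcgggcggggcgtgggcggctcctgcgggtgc
Ldhb: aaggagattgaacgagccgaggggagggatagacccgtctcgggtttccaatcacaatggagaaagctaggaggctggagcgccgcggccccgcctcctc
Pdk4: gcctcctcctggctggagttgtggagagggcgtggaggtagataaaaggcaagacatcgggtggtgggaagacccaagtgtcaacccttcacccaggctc
Ldha, upstream start: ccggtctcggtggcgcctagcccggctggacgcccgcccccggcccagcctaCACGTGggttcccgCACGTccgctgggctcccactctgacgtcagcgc
In *Slc2a1* the motif began 36 bases before the start and in *Pdk3* it began 53 bases before. The starts of *Pfkfb3* had it 60 bases before (upstream start) and, as the E-box, 53 bases before (downstream start).

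Of the glucose transporters, *Slc2a1*, the widely expressed carrier of basal uptake, was called. Its probe (chr4:118809864-118809923, positions of array probes on mm9) gave 5.11, 5.42, 5.02 and 5.35 on untreated arrays 1 to 4 and 6.54, 6.61, 5.89 and 5.85 on RA arrays 1 to 4. All RA arrays lay above all untreated arrays, and the change was 1.00 ± 0.22 (2.00-fold higher, adjusted p = 0.00667). *Slc2a3*, a high-affinity transporter prominent in neurons and embryonic cells, gave 5.01, 5.99, 5.40 and 5.81 untreated and 6.82, 6.99, 5.67 and 5.83 after RA. The groups overlapped through RA arrays 3 and 4, and its difference of 0.78 ± 0.35 was not called (adjusted p = 0.118). It was called under 3 of 17 alternatives, up to 1.06 with the authors' log2 values (adjusted p = 0.0483). For both transporters RA arrays 1 and 2 read higher than RA arrays 3 and 4. The RA response gene *Stra8* differed the other way, at 2.70 and 2.79 on RA arrays 1 and 2 and 5.19 and 4.92 on RA arrays 3 and 4, as did *Cyp26a1* and *Rarb*. Of the 6 ES cell markers 4 read higher on RA arrays 1 and 2, as the transporters did, *Pou5f1* among them (0.39 and 2.05, against -0.68 and -1.16), and 1 read lower there. Of the 5 fibroblast markers 3 were higher on RA arrays 1 and 2 and 1 was lower, and of the 4 mesoderm markers 3 were higher and 0 lower. The mesoderm markers *Mixl1* and *Mesp1*, counted as higher, were not well above background on any RA array, so their order carries no weight. *Eomes* was the detected mesoderm marker that was higher. Of the 4 neural and the 5 primitive endoderm markers 1 each was higher and 1 each lower. The part of these markers in the values of the transporters was not tested.

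Hexokinases trap glucose in the cell as glucose phosphate, and neither was called. *Hk1*, the general isoenzyme, gave 7.42, 7.09, 7.10 and 7.30 untreated and 6.81, 6.86, 6.62 and 7.05 after RA, a difference of -0.39 ± 0.15 (adjusted p = 0.0739, -0.06 under quantile normalization) without overlap between the groups. The other 2 probes of *Hk1* were called lower, at -0.97 and -0.76, so its probes disagree on the call and agree on the direction. The mean over its 3 probes was called (-0.70, adjusted p = 0.00123). *Hk2*, the inducible isoenzyme, gave 4.33, 3.48, 3.83 and 4.15 untreated and 3.38, 3.54, 3.59 and 3.51 after RA. Its groups overlapped at untreated array 2, and the difference was -0.44 ± 0.20 (adjusted p = 0.115). Without untreated array 2 it was called, at -0.60 (adjusted p = 0.0278).

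Phosphofructokinase, the committed step, held the member with the largest change on the brightest probes. *Pfkp*, the platelet-type subunit, gave 2.51, 2.58, 2.65 and 2.81 untreated and -1.79, -1.09, -1.70 and -2.36 after RA (chr13:6581718-6583872, a probe whose position runs over more bases than its length). Every RA array was more than 3 log2 units below every untreated array, and the change was -4.37 ± 0.25 (20.7-fold lower, adjusted p = 6.04e-06). The mean over both of its probes was 10.1-fold lower, a smaller change than that of *Pdk4* (18.2-fold lower, 1 probe). Only 0.480% of the gene names well above background on all arrays had a lower change. Its other probe fell by 2.31 on the log2 scale and was well above background on 2 of the 4 RA arrays. The remaining subunit genes were not called. *Pfkl*, the liver-type subunit, gave 1.75, 1.89, 1.41 and 2.93 untreated and 1.62, 1.91, 1.57 and 1.46 after RA, with overlap and a difference of -0.36 ± 0.31 (-0.04 without untreated array 4). *Pfkm*, the muscle-type subunit, gave 1.93, 1.82, 2.00 and 1.95 untreated and 2.23, 2.03, 2.41 and 2.28 after RA. All of its RA arrays were the higher ones, but by little (0.31 ± 0.14, adjusted p = 0.106).

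The bifunctional PFKFB enzymes make and remove the fructose bisphosphate that activates phosphofructokinase, and 3 of their 4 genes were called higher. *Pfkfb3*, the form with the strongest kinase activity, had the largest rise of any member. It gave 0.55, 0.39, 0.17 and 0.34 untreated and 3.20, 2.88, 1.75 and 1.88 after RA (chr2:11393453-11393512). The groups were apart and RA arrays 1 and 2 were again above RA arrays 3 and 4, with a change of 2.06 ± 0.33 (4.18-fold higher, adjusted p = 0.00112). The other *Pfkfb3* probe was not well above background on any untreated array and was at least 3.00-fold higher after RA. *Pfkfb1*, the form of liver and muscle, gave 0.79, 0.94, 0.02 and 1.19 untreated and 2.61, 2.64, 1.83 and 2.11 after RA (chrX:147078320-147078379). The groups did not overlap, and the change was 1.57 ± 0.29 (adjusted p = 0.00267). *Pfkfb4* gave -1.05, -1.17, -0.92 and -1.57 untreated and -0.19, -0.17, -0.29 and -0.25 after RA (chr9:108934652-108934711). Its RA arrays were tightly grouped above the untreated ones, and the change was 0.95 ± 0.17 (1.93-fold higher, adjusted p = 0.00191). Its other probe was dim on every array. *Pfkfb2*, the form known from heart, ranged from -1.98 to -1.79 untreated and from -2.03 to -1.75 after RA, a difference of 0.07 ± 0.13.

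Of the 4 genes for isomerases and aldolases, reversible steps in the middle of the pathway, 1 was called. *Gpi1*, glucose phosphate isomerase, had a difference of -0.17 ± 0.15 (0.09 under quantile normalization) and *Aldoa*, the general aldolase, of -0.40 ± 0.32 (0.02 under quantile normalization), and neither was called. The 3 probes of *Gpi1* gave -0.19 to -0.17. *Aldoc*, the aldolase of brain, gave 2.61, 1.71, 1.76 and 2.76 untreated and 1.59, 1.30, 1.33 and 1.54 after RA (chr11:78140198-78140257). Its groups did not overlap, and the change was -0.77 ± 0.26 (adjusted p = 0.0471). The call was lost when any of untreated arrays 1 and 4 and RA arrays 1 to 4 was left out (-0.82 to -0.59, adjusted p = 0.0732 to 0.117), with the slide as a block (adjusted p = 0.0625) and with quantile normalization (adjusted p = 0.0562). *Tpi1*, triosephosphate isomerase, had a difference of 0.31 ± 0.36 with untreated arrays spread from 3.90 to 5.80, and its other probe one of 0.55. Neither probe was called.

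Lower glycolysis, from glyceraldehyde phosphate to pyruvate, held 9 members, of which 1 was called higher and 2 lower. *Gapdh*, often used as a reference gene, ranged from 8.14 to 8.69 untreated and from 7.88 to 8.17 after RA, a difference of -0.45 ± 0.16 (adjusted p = 0.0556), which was -0.0018 under quantile normalization. Its 8 probes gave -0.54 to -0.17 and none was called. Processed pseudogenes of *Gapdh* share its sequence, and 2 of its probes are placed on chromosomes 7 and 8 and not on 6, so its value is uncertain. *Pgk1*, phosphoglycerate kinase, had a difference of 0.06 ± 0.32. The array places its probe on chromosome 3 whereas RefSeq has the gene on X, so this value too is uncertain. *Pgam1* and *Pgam2*, the general and the muscle phosphoglycerate mutase, had differences of -0.46 ± 0.16 (adjusted p = 0.0509, -0.17 under quantile normalization) and 0.31 ± 0.28, and neither was called. *Pgam2* was at 0.17 without untreated array 1 and at 0.57 without RA array 4.

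Among the enolases the muscle form alone was called. *Eno3* gave 2.50, 2.69, 1.71 and 2.47 untreated and 3.91, 4.24, 4.25 and 3.89 after RA (chr11:70475953-70476012). The lowest RA array was more than 1 log2 unit above the highest untreated one, and the change was 1.73 ± 0.23 (3.32-fold higher, adjusted p = 0.000405). *Eno1*, the general enolase, had a difference of -0.40 ± 0.23 (-0.06 under quantile normalization) and *Eno2*, the neuronal form used as a marker of neurons, of 0.39 ± 0.16 (adjusted p = 0.0929), and neither was called. *Eno2* was higher on all RA arrays (-0.73 to -0.35) than on all untreated arrays (-1.22 to -0.81). Without untreated array 3, *Eno1* (-0.60, adjusted p = 0.0240) and *Aldoa* (-0.71, adjusted p = 0.0274) were both called lower.

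Pyruvate kinase, the last step, has *Pkm2* as the gene of the M forms, named *Pkm* in RefSeq. It gave 5.94, 5.96, 5.47 and 6.43 untreated and 5.34, 5.60, 5.06 and 5.17 after RA (chr9:59526867-59526926), with untreated array 3 inside the range of the RA arrays. The change of -0.66 ± 0.22 was called (1.58-fold lower, adjusted p = 0.0463). The call was lost without untreated array 1, 2 or 4 or RA array 1, 3 or 4 (-0.67 to -0.50, adjusted p = 0.0839 to 0.116), with the replicate number as a block (adjusted p = 0.0562) and with quantile normalization (-0.42). The deposited values do not separate the M1 and M2 splice forms. *Pklr*, the form of liver and red cells, gave -5.39, -5.28, -4.71 and -4.80 untreated and -7.78, -7.53, -5.94 and -6.42 after RA. It was well above background on 3 untreated arrays and on no RA array, so only a bound can be given, at least 1.89-fold lower (adjusted p = 0.00628 in the fit), and that call was lost with the normexp background correction, where the change was -0.46.

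Lactate dehydrogenase is a tetramer of A and B subunits, and only the B subunit gene was called. *Ldhb*, which favours pyruvate formation, gave 6.84, 6.61, 6.29 and 6.78 untreated and 3.86, 4.10, 4.52 and 4.28 after RA (chr6:142438770-142438829). The groups were far apart, with a change of -2.44 ± 0.19 (5.42-fold lower, adjusted p = 2.64e-05). *Ldha*, which favours lactate formation, gave 7.20, 7.08, 6.07 and 7.54 untreated and 6.81, 7.19, 6.22 and 6.51 after RA. These groups overlapped, and the difference was -0.29 ± 0.34, or 0.02 under quantile normalization, -0.59 without untreated array 3 and -0.10 without untreated array 4. The other 2 probes of *Ldha* gave -0.24 and -0.17.

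Lactate and pyruvate cross the membrane through the monocarboxylate transporters. *Slc16a1* gave -3.41, -3.68, -3.74 and -3.69 untreated and -4.05, -3.88, -4.33 and -4.22 after RA. All RA arrays were lower, and the difference of -0.49 ± 0.16 passed the p threshold (adjusted p = 0.0347) but stayed under 1.5-fold. In 12 of 17 alternatives it did not pass that threshold, quantile normalization (-0.23, adjusted p = 0.117) and the authors' values (-0.11, adjusted p = 0.241) among them. *Slc16a3*, the exporter of highly glycolytic cells, gave 2.40, 2.50, 1.87 and 3.73 untreated and 2.91, 3.30, 2.59 and 2.68 after RA. All of its RA arrays lay inside the untreated range, with a difference of 0.25 ± 0.37.

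The kinases that inactivate pyruvate dehydrogenase went different ways. *Pdk4*, the kinase induced by fasting and fatty acids, gave 0.16, -0.21, -0.51 and 0.02 untreated and -4.40, -4.27, -4.09 and -4.55 after RA (chr6:5433441-5433500). The groups were separated by more than 3 log2 units, and the change was -4.19 ± 0.19 (18.2-fold lower, adjusted p = 2.22e-06). It was 8.72-fold lower with the normexp background correction and 8.03-fold lower when quantile normalization was added, and was called in both. Only 0.583% of the gene names detected on all arrays had a lower change. *Pdk1*, the kinase induced by hypoxia, gave 3.12, 2.86, 2.06 and 3.44 untreated and 0.63, 1.25, 0.10 and 0.50 after RA (chr2:71739688-71739747). Again no RA array reached an untreated one, and the change was -2.25 ± 0.34 (4.76-fold lower, adjusted p = 0.000786). *Pdk3* was the kinase gene called higher. It gave 0.00, -0.11, 0.15 and -0.08 untreated and 1.02, 0.74, 1.17 and 1.42 after RA (chrX:91010227-91010286). The groups did not overlap, with a change of 1.10 ± 0.17 (2.14-fold higher, adjusted p = 0.00105). *Pdk2*, the broadly expressed kinase, ranged from -2.18 to -1.80 untreated and from -2.18 to -1.40 after RA, a difference of 0.14 ± 0.21. Its probes had opposite signs (0.14 and -0.07), and neither was called.

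Pyruvate dehydrogenase itself is built from an alpha and a beta subunit in its first component. *Pdha1*, the X-linked alpha subunit, gave 2.78, 3.00, 2.88 and 3.29 untreated and 3.10, 3.06, 3.00 and 2.81 after RA. The groups overlapped, with a difference of 0.01 ± 0.16. *Pdhb*, the beta subunit, gave 5.33, 4.92, 5.03 and 5.15 untreated and 3.48, 3.58, 3.64 and 3.65 after RA (chr14:8998505-8998562). All RA arrays were lower by more than 1 log2 unit, and the change was -1.52 ± 0.14 (2.87-fold lower, adjusted p = 5.70e-05). All 3 *Pdhb* probes were called, at -1.52 to -1.48.

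Isoenzyme genes were set against each other within each array, which removes a constant scaling of the array but not the effect of quantile normalization. The change of their log2 difference was tested for 13 pairs with a two-sided exact permutation test of the 8 labels, for which 0.0286 is the smallest p, and none of the 13 passed after Benjamini-Hochberg adjustment. The condition labels separated 6 pairs completely, each at the smallest p (p = 0.0286, adjusted p = 0.0619, exact). The change of the log2 difference, RA minus untreated, was -4.02 for *Pfkp* relative to *Pfkl*, -2.15 for *Ldhb* relative to *Ldha* and -1.11 for *Pfkfb4* relative to *Pfkfb3*. This change was 2.13 for *Eno3* relative to *Eno1*, and 3.35 for *Pdk3* and 2.39 for *Pdk2* relative to *Pdk1*. The remaining 7 pairs overlapped. Among them the change was -0.05 for *Hk2* relative to *Hk1*, -0.22 for *Slc2a3* relative to *Slc2a1* and -0.37 for *Aldoc* relative to *Aldoa*. *Pfkm* relative to *Pfkl* (0.67), *Slc16a3* relative to *Slc16a1* (0.74), *Pgam2* relative to *Pgam1* (0.77) and *Eno2* relative to *Eno1* (0.79) had positive changes, at exact permutation p of 0.0857 to 0.143. With the authors' values, which are quantile normalized, 5 of these changes moved by more than 1.5 times, to -0.20 for *Hk2*, -0.71 for *Aldoc*, 0.48 for *Slc16a3*, 0.44 for *Pgam2* and 0.37 for *Eno2*. Single arrays moved some of these changes as far. Without untreated array 4 that of *Pfkm* was 0.36 and that of *Slc16a3* 1.13. *Slc2a3* was at -0.36 without untreated array 1, -0.14 without untreated array 2 and -0.11 without RA array 3. *Aldoc* was at -0.58 without untreated array 2 and at -0.21 without untreated array 3 or RA array 2.

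**Figure D2:**
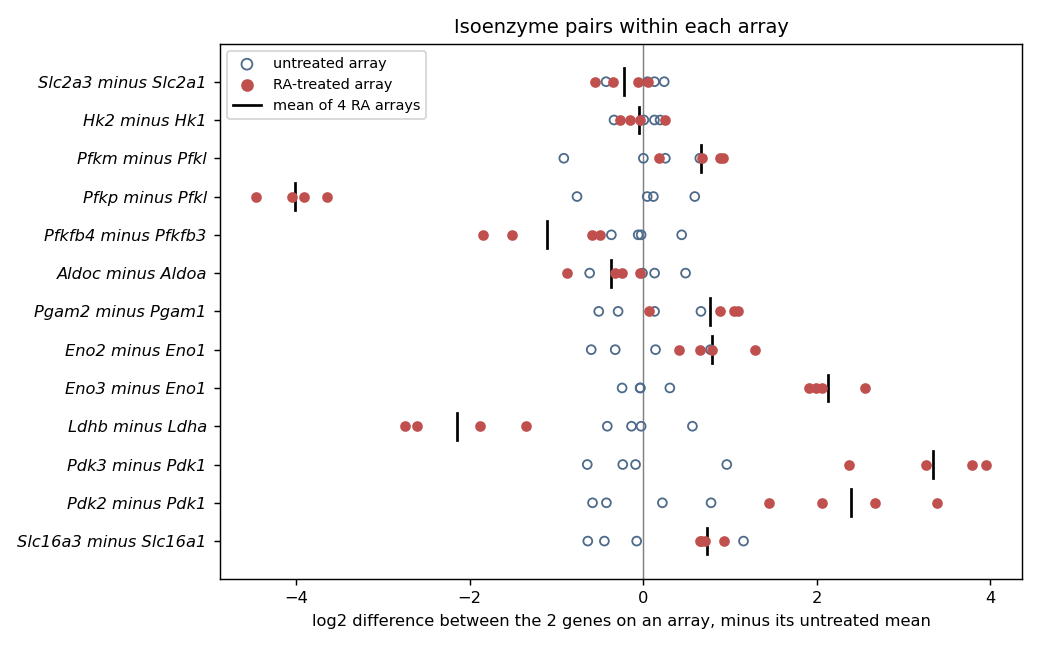
Each row is a pair of isoenzyme genes, and the x axis gives their log2 difference on an array minus the untreated mean of that difference. Open circles are untreated arrays, filled circles RA arrays and vertical bars the RA means. *Pfkp* minus *Pfkl* (-4.02) and *Pdk3* minus *Pdk1* (3.35) lie farthest from 0, and 6 of the 13 pairs show no overlap between conditions.

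Some arrays were often the lowest or the highest of their condition. Untreated array 3 was the lowest of the 4 for 19 of the 34 members, against 38.3% of the gene names detected on all arrays, and untreated array 4 was the highest for 17, against 24.2%. For some members this spread was wide. *Tpi1* went from 3.90 on untreated array 3 to 5.80 on untreated array 4, *Ldha* from 6.07 to 7.54 and *Slc16a3* from 1.87 to 3.73. After RA, array 2 was the highest for 16 members (32.2% of genes) and array 3 the lowest for 14 (31.8%). Genes with a wide untreated spread, such as *Tpi1* (SD 0.79), *Slc16a3* (SD 0.78) and *Pgk1* (SD 0.69), have standard errors of 0.32 to 0.37, whereas *Pdhb* (SD 0.17) has 0.14.

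**Figure D3:**
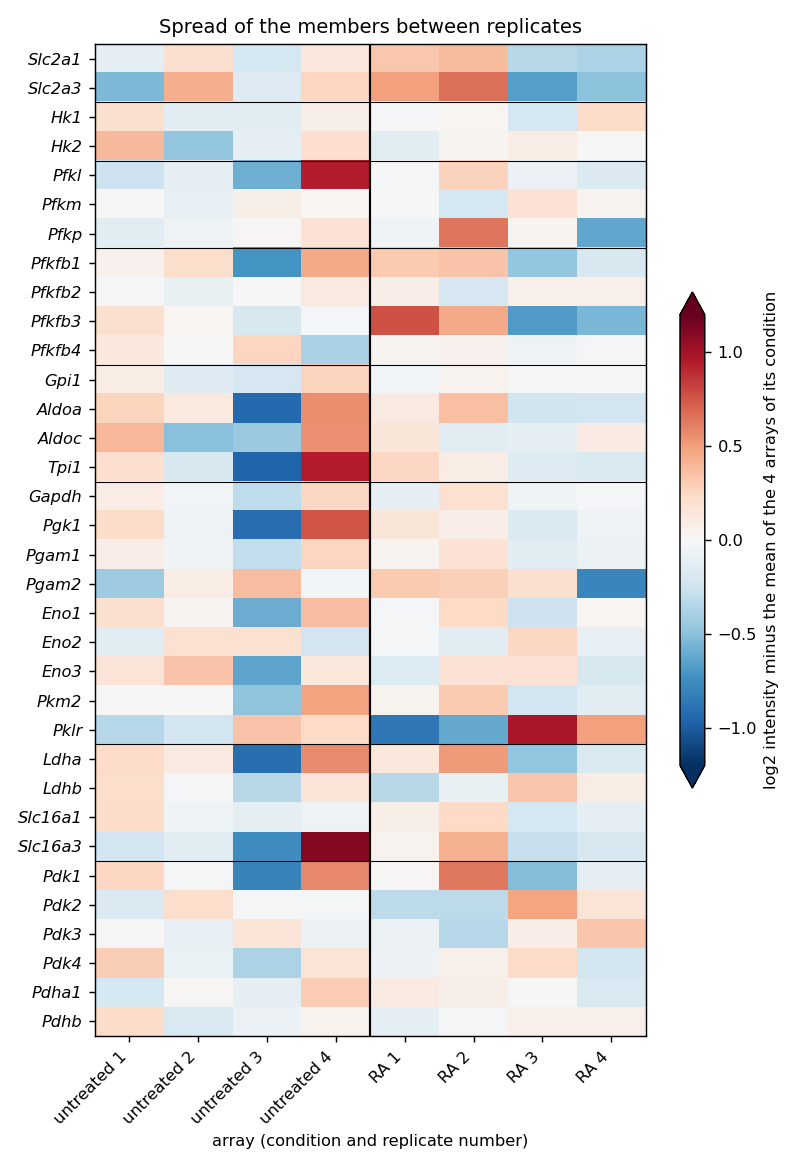
Colours give the log2 intensity of each gene (rows, grouped by role) on each array (columns) minus the mean of the 4 arrays of its condition, with red above and blue below. Untreated array 3 is mostly blue and untreated array 4 mostly red from *Aldoa* to *Pdk1*, and RA arrays 1 and 2 are red and RA arrays 3 and 4 blue for *Slc2a1*, *Slc2a3* and *Pfkfb3*.

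Counts of calls in the lists that follow are read beside 13.9% higher and 22.1% lower among all gene names. Further genes of the same pathway gave 4 higher and 13 lower of 31 (median -0.45), or 5 higher and 7 lower with the authors' values. *Hkdc1*, a hexokinase domain protein (3.36), *Bsg*, the chaperone of the monocarboxylate transporters (1.11), and *Brp44*, now *Mpc2*, of the mitochondrial pyruvate carrier (0.81), had the largest rises. *Brp44l*, now *Mpc1*, its partner in the carrier and named here after its value was seen, fell by 1.17 on the log2 scale. *Pdha2*, the alpha subunit known from testis (-5.86), *Ldhd*, which acts on D-lactate, and *Ldhc*, the testis subunit (-2.50), had the largest falls. *Pdha2* was well above background on 3 of the 4 RA arrays, and the 4 spread from -7.68 to -2.93. *Ldhd* was not well above background after RA and was at least 19.8-fold lower.

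Glycogen and gluconeogenesis genes gave 8 higher and 3 lower of 19 (median -0.13). *Gyg*, the primer of glycogen (2.77), and the glycogen phosphorylases *Pygb* (1.41) and *Pygl* (1.39) had the largest rises. *Fbp1*, fructose bisphosphatase, fell by 3.19 (well above background on 3 of the 4 RA arrays) and *Pgm3*, which acts on acetylglucosamine phosphate, by 0.83 on the log2 scale. *Pck1*, the cytosolic enzyme that starts gluconeogenesis, was not above background on any RA array and was at least 2.10-fold lower. In the pentose phosphate pathway 2 of 13 rose, *H6pd*, of the endoplasmic reticulum (0.89), and *Pgls*, the lactonase (0.69), and 4 fell, led by *Prps1*, which makes the activated ribose of nucleotides (-2.96), and by the transketolase-like genes *Tktl1* (at least 3.82-fold lower) and *Tktl2* (-2.77, well above background on 1 RA array).

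Of the 21 genes listed for the tricarboxylic acid (TCA) cycle 4 rose and 3 fell (median 0.06). The list also holds cytosolic enzymes such as *Aco1* and *Idh1*, so its rises are not all of the cycle itself. *Aco1*, the cytosolic aconitase that also senses iron (2.02), and the isocitrate dehydrogenases *Idh2* (1.28) and *Idh1* (0.65) had the largest rises. *Ogdhl* (-2.14) and *Ogdh* (-0.96), of oxoglutarate dehydrogenase, and *Sdhc*, of succinate dehydrogenase (-0.61), fell. The 10 genes of the hypoxia-inducible factors and their regulators gave 4 higher and 1 lower (median 0.32). *Arnt2*, a dimer partner of the factors (2.79), *Egln1*, their main oxygen sensor (1.65), and *Hif1a* itself (1.19) had the largest rises, and *Egln3*, an oxygen sensor that is itself induced by hypoxia, fell by 2.00 on the log2 scale. Hypoxia-inducible genes outside glycolysis went both ways, with 5 higher and 3 lower of 18 (median 0.02). *Loxl2*, which cross-links collagen (3.48), the angiogenic factor *Vegfa* (2.00) and *P4ha1*, which hydroxylates collagen (1.76), had the largest rises. The histone demethylase *Kdm3a* (-2.12), *Stc2* (-1.90) and *Ankrd37* (-0.92) fell.

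**Figure D4:**
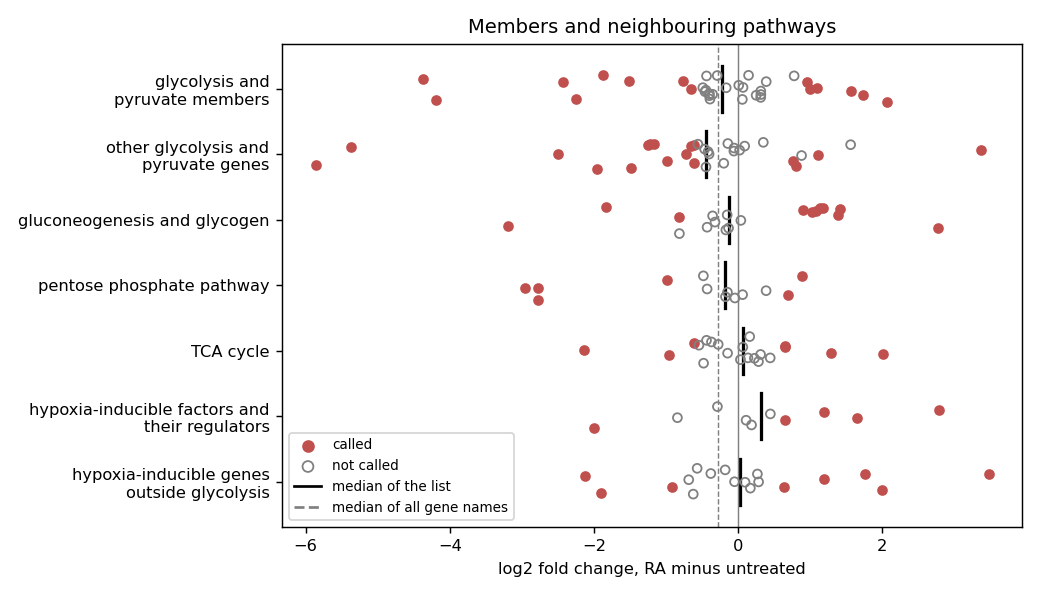
Each point is a gene, placed by its log2 fold change (RA minus untreated) on the x axis, in the 34 members and 6 neighbouring lists (rows, with vertical scatter for legibility only). Filled points are called, open points not called, black bars the median of a list and the dashed line the median of all gene names (-0.28). Every list holds called genes on both sides of 0.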

How the data were processed

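Gene expression was measured in 4 untreated and 4 RA-treated samples of E14Tg2A.4 ES cells, grouped by their labels. The authors deposited Agilent Feature Extraction (version 10.7.3.1) output, which holds for each spot the processed intensity (background corrected, not normalized between arrays), mean and background intensity, and scores of 0 or 1 that mark spots well above background, saturated or outlying. A further deposited file holds the authors' own log2 values, which matched normexp correction with an offset of 50 followed by quantile normalization (r = 0.99999 per array, median 6.89 on each array, not centred).

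Processed intensities were put on the log2 scale in R (version 4.3.3) and the 75th percentile of each array's 59305 spots other than controls was subtracted. Outlier spots (124 to 145 per array) were left out, spots of a probe were averaged, and limma (version 3.58.1, lmFit and eBayes) compared the conditions over 55681 probes. No filter on dim probes was set. A probe dim on all arrays of a condition was given as a bound, the brighter mean over the lowest signals detected. The number of arrays limits the precision. Probe positions are those of the array's files (mm9), and 4610 gene names are positions only. Per file headers the arrays lay on 2 slides.

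The members and lists were chosen with earlier results of these data known. All members are named, called members and those of irreversible or branch steps with every array, and up to 3 called genes per direction of each other list. *Brp44l* is named in addition. Whether the replicate numbers of the labels pair the samples is uncertain. Deviations from the condition means correlated within numbers 1 to 4 at r = 0.186, 0.189, 0.104 and 0.151 (27493 probes). Between different numbers r was at most 0.142, above that of number 3. The untreated and RA arrays of numbers 1 and 2 shared a slide, so number and slide cannot be told apart there. The main fit was unpaired. Every untreated sample matched its own number best, as did 3 of the 4 RA samples, with RA 3 closest to untreated 4. The alternatives were quantile and normexp normalization, the authors' values, leaving out each array, all probes of a gene, replicate or slide as a block, a filter on dim probes, no fold limit and a test against 1.5-fold. On simulated data of 55640 probes for this comparison, 29 of 100 probes changed by 1 and 67 of 100 changed by 2 on the log2 scale were called, with 3 false calls. Only those probes were changed, whereas 34.6% of all probes were called in the real data. With so few changed probes the adjustment is stricter, so these shares do not give the recovery in the real data.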

Additional observations from a re-analysis of the deposited data

Results flagged for a closer look

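Each condition of each member was examined for an array far from the other 3 (Dixon's test, 68 groups), and 2 groups stood out, where chance alone gives about 1 in 20. *Pfkfb2* read -2.03 on RA array 2, against -1.77 to -1.75 on the other RA arrays. *Pgam2* read -1.38 on RA array 4, against -0.40 to -0.28 on the other RA arrays. Neither gene was called.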

How the results depend on the processing

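The 6 higher and 8 lower calls among the members became 4 to 7 higher and 6 to 10 lower over 19 alternatives (6 and 6 to 10 without single arrays, the 10 without untreated array 3), with 4 and 6 in the test against 1.5-fold. Of the 14 calls, *Aldoc* was lost in 9, *Pkm2* in 11 and *Pklr* in 3 of the alternatives on single genes, where the changes of *Pklr* were as small as -0.23 with the authors' values. The replicate block removed the call of *Pkm2* and, among the lists, moved the pentose phosphate rises from 2 to 1 and the falls of the hypoxia-inducible factor list from 1 to 2. It changed no other count by over 1.5 times. The 11 other called members kept their call in each of the 17 alternatives for single genes. The test against 1.5-fold is not among these and was scored by counts only. It gave 4 higher calls against 6, so some of the 11 lost their call there. No pair passed adjustment in any alternative run, and with the replicate block the smallest p of 0.125 cannot pass.

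Signs turned for *Gpi1*, *Aldoa* and *Ldha*, to 0.095, 0.019 and 0.025 with quantile normalization, 0.083, 0.0055 and 0.028 with normexp and quantile normalization, and 0.078, 0.005 and 0.013 with the authors' values, all close to 0. Without single arrays *Pdha1* ranged from -0.062 to 0.108, *Tpi1* from -0.0061 to 0.63, *Pgk1* from -0.25 to 0.31, *Slc16a3* from -0.00090 to 0.62, *Pdk2* from -0.014 to 0.25 and *Hk2* relative to *Hk1* from -0.16 to 0.024. The mean over all probes gave 0.26 for *Hk2* relative to *Hk1*.

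Falls among the further glycolysis genes numbered 13, and 8 with normexp and quantile normalization, 7 with the authors' values, 6 in the test against 1.5-fold and 8 to 14 without single arrays (8 without RA array 1). The test against 1.5-fold also gave 1 rise there (4 before), 4 rises and 1 fall in the glycogen list (8 and 3 before), 0 rises in the pentose phosphate list (2 before), 1 rise and 1 fall in the TCA list (4 and 3 before) and 3 rises among hypoxia-inducible genes (5 before). Without single arrays the pentose phosphate rises were 1 to 2 (1 without untreated array 1 or 3 or RA array 2, 3 or 4) and the falls of the hypoxia-inducible factor list 1 to 2 (2 without untreated array 3 or RA array 1). That list also gave 2 falls with normexp correction, over all probes of a gene and with the filter on dim probes. TCA falls were 1 over all probes and 5 with no fold limit. Scaling to the median of detected probes was chosen after seeing the data and lost the calls of *Aldoc* and *Pkm2*. The causes were not tested.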
